A study of Sus scrofa with 4 samples.

Results

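The peroxiredoxin and thioredoxin system was examined in porcine aortic valve interstitial cells, which resemble fibroblasts and keep up the matrix of the valve leaflet, as 10 genes chosen by symbol from a deposited table of 14804 gene rows. The genes were PRDX1 to PRDX6, TXN, TXNRD1, SRXN1 and TXNIP, and all 10 had a row with counts in every column. The cells were primary cultures from Sus scrofa, and how many animals they came from was not stated in the labels. The NO donor group received detaNONOate, which releases nitric oxide (NO), at 150 µM for 5 days, and the control group was cultured for 5 days without a donor. Both groups share the primary culture and the droplet single-cell preparation, which aimed at about 2000 cells per group, and each is 1 library. The libraries of a 3-day NO exposure with 2 days of withdrawal and of S-nitrosoglutathione were not analysed here.

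Peroxiredoxins are peroxidases that reduce hydrogen peroxide, organic peroxides and peroxynitrite with a reactive cysteine. Most of them are then reduced by thioredoxin, thioredoxin is reduced by thioredoxin reductase, and the reductase draws its electrons from NADPH. Thioredoxin also removes NO groups from cysteines of other proteins, and the peroxidase cysteine, when oxidised too far, is repaired by sulfiredoxin. Several of these genes are known targets of NRF2, the transcription factor that answers electrophiles and oxidants, while TXNIP binds thioredoxin and is known for its induction by glucose.

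The table gives 3 columns of normalized counts for each library, from which the whole counts were recovered. The columns held 7064703 to 7151367 counts in NO-treated cells and 6486628 to 8067661 in the control, with 21289316 in all in NO-treated cells and 21807024 in the control. The 3 columns were taken as parts of 1 library, so no difference below has a replicate behind it and the treatment was not tested. Intervals are exact 95% intervals that cover counting error only. A gene was called higher or lower at a log2 ratio of at least 1 in size, a 2-fold difference. The authors' size factors set the median log2 ratio of the 13943 measured genes at 0.00, whereas scaling each library to its total counts adds 0.60 to every log2 ratio. Both are therefore given for members and related genes where a call or a direction differs. The values are sums over cells, so fewer cells that express a gene and less RNA of it per cell cannot be told apart.

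All 10 markers fixed for interstitial cells were counted in both libraries, and their summed normalized count was 41333 in NO-treated cells, against 252077 in controls. All of them but PDGFRB were lower in NO-treated cells under both scalings, by sizes that differed over the list. The log2 ratios of the lower ones ran from −1.51 for VIM, or −0.92 with total count scaling, to −7.76 for ACTA2. ACTA2 had 263 in NO-treated cells and 57046 in controls, while PDGFRB had 328 in NO-treated cells and 319 in controls. Of 7 endothelial markers 3 had a row, PECAM1, ERG and EMCN, with a sum of 283 in NO-treated cells, against 709 in controls. Of 8 leukocyte markers CD14 and CD68 had a row, with a sum of 158 in NO-treated cells and 162 in controls at the authors' scaling. CD14 had a log2 ratio of −0.08, or 0.51 with total count scaling, and CD68 had 24 counts in NO-treated cells, against 4 in controls. Of 7 erythroid markers, set beside PRDX2 because red cells are rich in it, only HEMGN had a row, with 26 counts in NO-treated cells, against 47 in controls. None of the 6 cardiomyocyte and 5 epithelial markers had one. The part of these shifts in the results below was not tested.

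The system did not move as a block. PRDX1, PRDX6, TXNRD1, SRXN1 and TXNIP were higher in NO-treated cells, by 3.18-fold to 7.76-fold. TXN, PRDX2, PRDX3 and PRDX5 lay within 0.2 log2 units of the control at the authors' scaling, and PRDX4 was 1.63-fold lower, short of the threshold. Thus 5 of 10 members were higher and 0 lower by the 2-fold rule, where 14.5% of all measured genes were higher and 20.2% lower. Among the 2082 genes with a mean normalized count of at least 500 over the columns, 8.65% were higher and 21.3% lower; TXNIP reached that mean only through NO-treated cells, with 1009 there and 130 in controls, so no count of members is set beside these shares. With total count scaling the count was again 5 higher and 0 lower, while the share of all measured genes past the same threshold was 33.2% higher and 11.9% lower. The median log2 ratio over the 10 members was 0.91, or 1.51 with total count scaling. Together the 10 genes took 2.05% of all counts in NO-treated cells, against 0.732% in controls, shares that go with total count scaling. An adjusted p-value below 0.05 is listed for 7 of the 10 members in the authors' deposited table, and for 51.1% of the measured genes; it rests on the columns, not on separate cultures. At a threshold of 0.5 log2 units 5 members were higher and 1, PRDX4, lower, where 29.5% of the measured genes were higher and 32% lower.

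**Figure D1:**
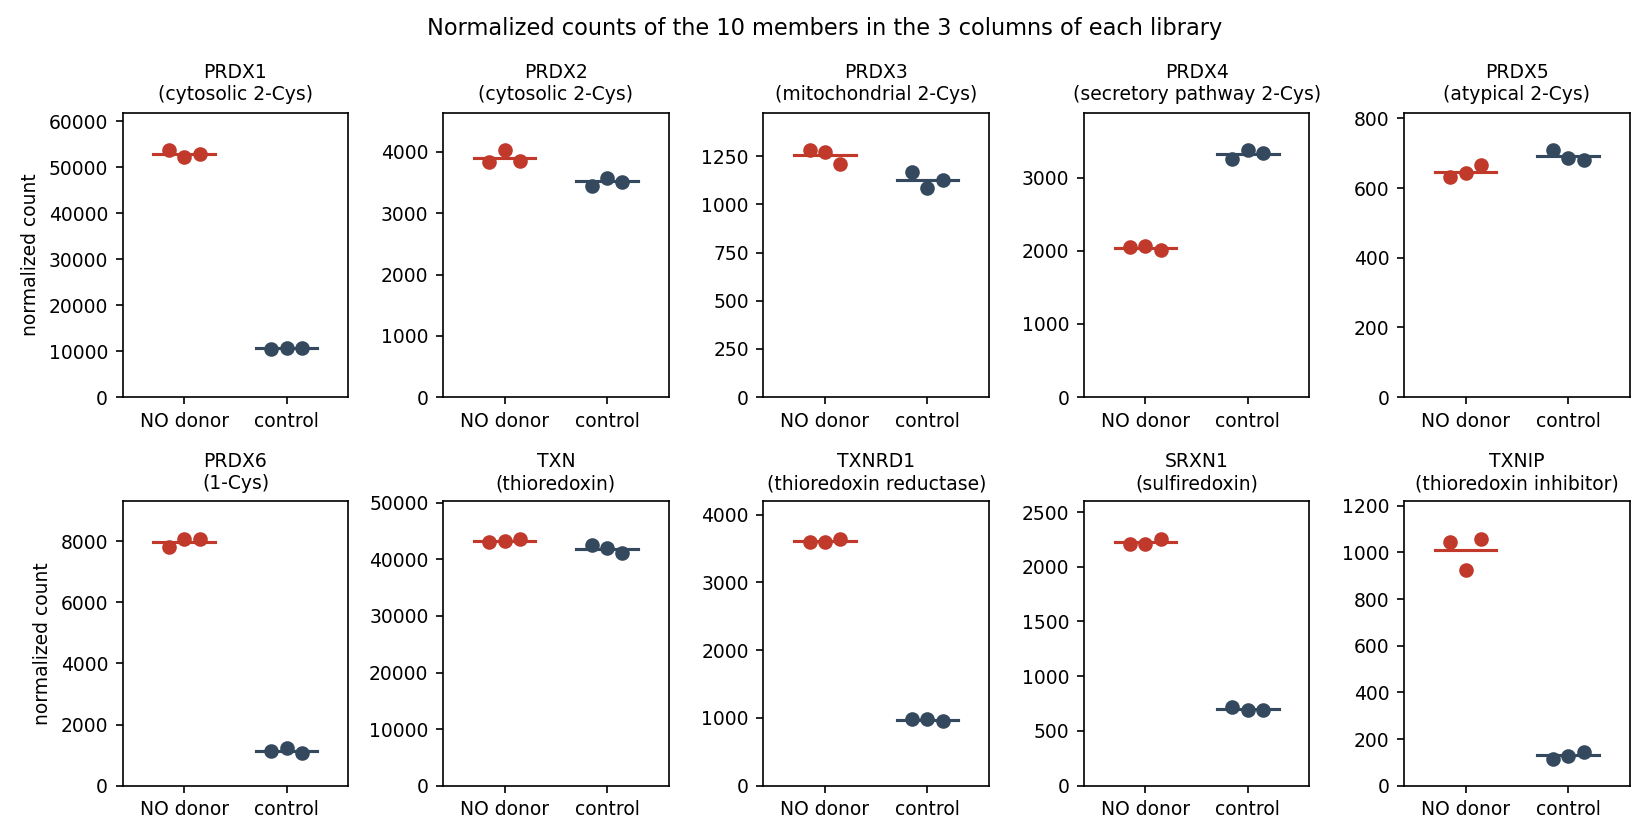
Normalized counts of each member, with 1 point per column of a library and a line at the library's pooled value. PRDX1, PRDX6, TXNRD1, SRXN1 and TXNIP lie well apart with the NO donor on top, PRDX4 lies apart with the control on top, and TXN, PRDX2, PRDX3 and PRDX5 differ little.

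The electron donors came first in the pathway and differed from each other. TXN encodes cytosolic thioredoxin, the small dithiol protein that reduces peroxiredoxins and other disulfides (chromosome 1, 251264180 to 251278000, Sscrofa11.1). It had 42980.2, 43279 and 43675 normalized counts in the NO donor columns and 42520, 42068 and 41147 in the control columns. The columns of the libraries did not overlap, but the distance between them was small beside the level. The log2 ratio was 0.05 (0.04 to 0.06) at the authors' scaling and 0.65 with total count scaling, so whether TXN lay at or above the control level depended on the scaling. A long non-coding RNA annotated on the opposite strand, LOC110256047, had 98 counts in NO-treated cells and 50 in controls. TXNRD1 encodes cytosolic thioredoxin reductase, a selenoprotein that passes electrons from NADPH to thioredoxin (chromosome 5, 80170334 to 80213889). It had 3595, 3593 and 3648 normalized counts in the NO donor columns and 986, 977 and 959 in the control columns. All NO donor columns stood far above all control columns, and the pooled level was 3.71-fold higher (3.55 to 3.88), a log2 ratio of 1.89.

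The typical 2-Cys peroxiredoxins, which form disulfides between paired subunits, split by gene. PRDX1, the main cytosolic and nuclear one and a known NRF2 target (chromosome 6, 165847390 to 165859918), had 53729, 52190.2 and 52874 normalized counts in the NO donor columns. The control columns had 10498, 10649 and 10674. The pooled level was 4.99-fold higher in NO-treated cells (4.92 to 5.05), or 7.54-fold with total count scaling. PRDX1 took 0.914% of all counts in NO-treated cells, against 0.121% in controls, shares that go with the second scaling. Of the measured genes 96.8% had a lower log2 ratio.

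PRDX2, the other cytosolic 2-Cys enzyme and a close relative of PRDX1 (chromosome 2, 66207829 to 66211474), had 3839, 4031 and 3846 normalized counts in the NO donor columns and 3453, 3584 and 3514 in the control columns. Its log2 ratio was 0.15 (0.11 to 0.19), or 0.75 with total count scaling. RNASEH2A overlaps the gene on the opposite strand, with 307 counts in NO-treated cells, against 391 in controls. PRDX2 was also the 1 member for which an alignment of the transcript to the genome found other loci over at least 50% of its length. A pseudogene is annotated at each of the 2 loci, with an identity of up to 88.9%, and the labels do not state how reads shared among copies were counted.

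PRDX3, the mitochondrial member of the class (chromosome 14, 129079050 to 129090790), had 1282, 1272 and 1207 normalized counts in the NO donor columns and 1170.3, 1087 and 1127 in the control columns. The columns did not overlap, the log2 ratio was 0.15 (0.09 to 0.22), and total count scaling gave 0.75. PRDX4, the form of the secretory pathway, which works in the endoplasmic reticulum (chromosome X, 19800153 to 19819575), was the one member whose columns all lay well below the control. It had 2051, 2066 and 2008 normalized counts in the NO donor columns and 3254, 3375 and 3331 in the control columns. The log2 ratio was −0.70 (−0.75 to −0.66) at the authors' scaling, but −0.11 (−0.15 to −0.06) with total count scaling. PRDX4 was therefore lower under both, by a size that depended on the scaling.

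The remaining peroxidases belong to other classes. PRDX5, the atypical 2-Cys enzyme found in mitochondria, peroxisomes and cytosol (chromosome 2, 7798672 to 7801955), had 633, 643 and 667 normalized counts in the NO donor columns and 709, 686 and 679.5 in the control columns. The log2 ratio was −0.09 (−0.18 to −0.003), and total count scaling turned it to 0.50. PRDX6, the 1-Cys peroxiredoxin, relies on glutathione rather than thioredoxin and also has phospholipase activity (chromosome 9, 115857629 to 115868898). It had 7804, 8089.6 and 8083 normalized counts in the NO donor columns and 1134, 1225 and 1065 in the control columns. It was the peroxiredoxin with the largest ratio, at a log2 ratio of 2.81 (2.76 to 2.87), and 97.9% of the measured genes had a lower one. LOC100624136, annotated on the opposite strand over the end of the gene, had 64 counts in NO-treated cells, against 16 in controls, few beside the 29389 counts of PRDX6 in NO-treated cells and 2837 in controls.

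**Figure D2:**
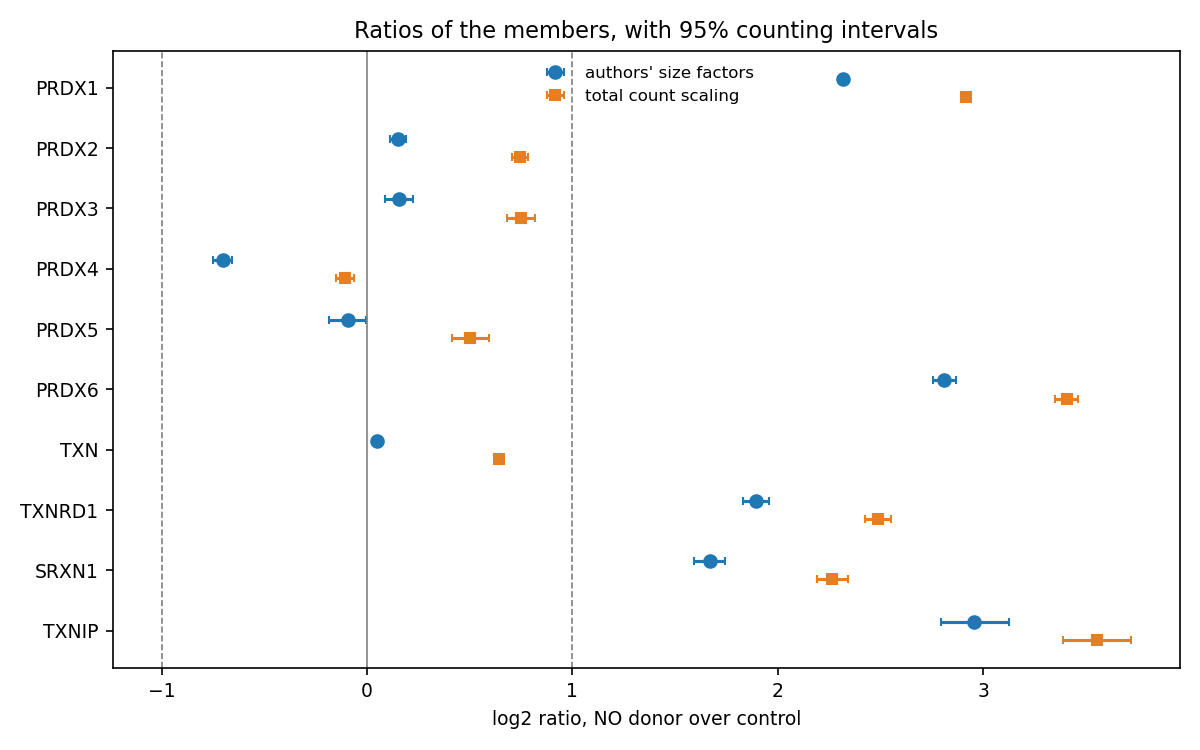
Log2 ratio of each member, NO donor over control, at the authors' size factors (circles) and with total count scaling (squares), with 95% counting intervals; dashed lines mark a 2-fold difference. Under both scalings the same 5 genes, PRDX1, PRDX6, TXNRD1, SRXN1 and TXNIP, lie beyond the upper dashed line and no gene lies beyond the lower one.

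SRXN1 encodes sulfiredoxin, which uses ATP to repair over-oxidised 2-Cys peroxiredoxins (chromosome 17, 34582377 to 34589308). It had 2209, 2209 and 2258 normalized counts in the NO donor columns and 718, 688 and 696 in the control columns. The columns stood apart, with a pooled level 3.18-fold higher in NO-treated cells (3.02 to 3.35). TXNIP encodes the thioredoxin-interacting protein, an alpha arrestin that binds reduced thioredoxin and restrains glucose uptake (chromosome 4, 99348589 to 99351760). It had 1046, 923 and 1059 normalized counts in the NO donor columns and 116, 126 and 145 in the control columns. TXNIP had the largest ratio of the members, 7.76-fold higher (6.93 to 8.73), and 98.1% of the measured genes had a lower one. It was also the member with the widest columns, since the highest exceeded the lowest by 14.7% in NO-treated cells and by 25.1% in the control. The log2 ratio of single columns ran from 2.67 to 3.19 over the 9 pairings.

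**Figure D3:**
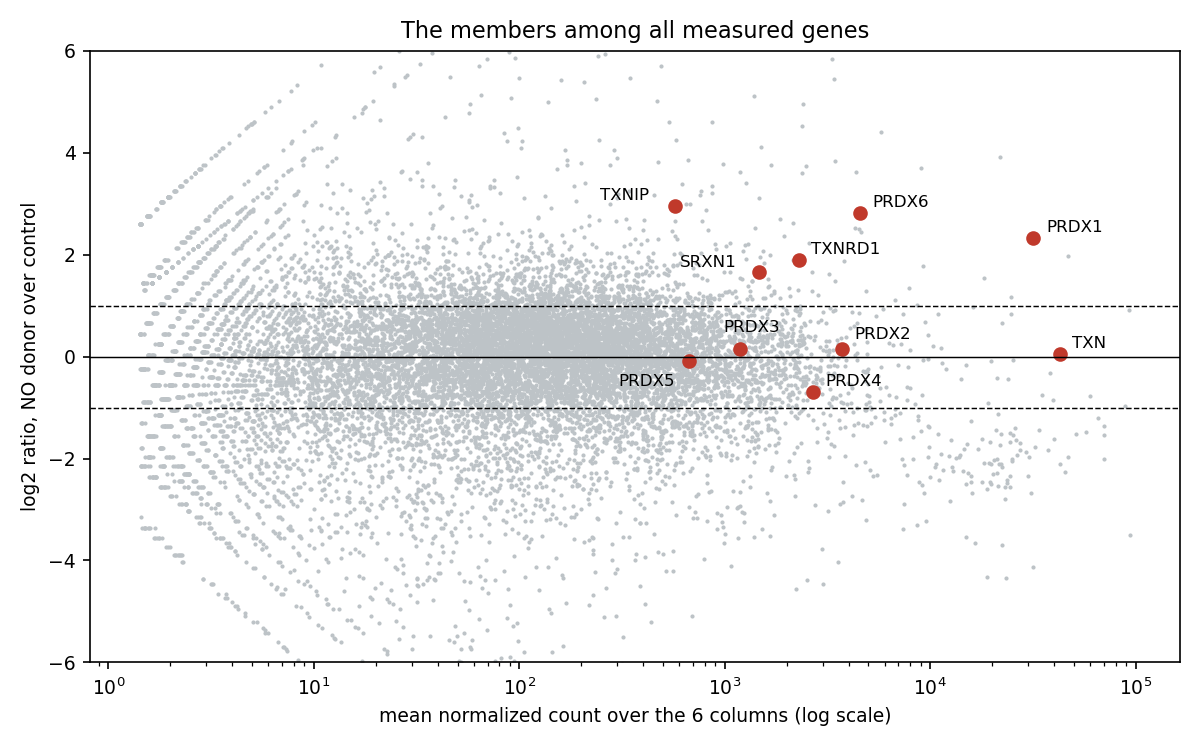
Log2 ratio, NO donor over control, against the mean normalized count on a log scale for all measured genes (grey) and the 10 members (red); 63 genes beyond 6 log2 units are not drawn. PRDX1, PRDX6, TXNRD1, SRXN1 and TXNIP lie above most of the grey points, and the other members lie in the main body.

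The 250 bases upstream of each member's annotated start were read from the RefSeq genome Sscrofa11.1, the build named in the submitters' processing notes, to show what the members share in sequence. They were searched on both strands for the carbohydrate response element as CACGNG and CNCGNG with any 5 bases between them, the antioxidant response element core, the site of NRF2, as TGACNNNGC, and the form of that element with an AP-1 core as TGANTCAGC. The last 2 can overlap, since TGANTCAGC with C as its N matches both. The motifs were chosen with the values of the members known. The carbohydrate element was found upstream of TXNIP, in 1 of 10 members and 0.428% of 14717 genes of the table. The element with an AP-1 core was found upstream of SRXN1, in 1 of 10 members and 0.741% of genes, and the core alone upstream of TXN, in 1 of 10 members and 10.6% of genes. The 3 windows are shown 5′ to 3′ in the direction of the gene, with the match in capitals. They are chr4:99348339-99348588 on the plus strand, chr17:34582127-34582376 on the plus strand and chr1:251278001-251278250 on the minus strand. The windows of TXNIP and SRXN1 also hold part of a long non-coding RNA annotated on the opposite strand.
TXNIP: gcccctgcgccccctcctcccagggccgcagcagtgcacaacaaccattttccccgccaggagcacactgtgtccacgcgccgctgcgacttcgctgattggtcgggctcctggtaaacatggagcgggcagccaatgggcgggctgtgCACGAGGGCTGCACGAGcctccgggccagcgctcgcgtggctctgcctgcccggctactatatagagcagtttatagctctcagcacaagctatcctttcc
SRXN1: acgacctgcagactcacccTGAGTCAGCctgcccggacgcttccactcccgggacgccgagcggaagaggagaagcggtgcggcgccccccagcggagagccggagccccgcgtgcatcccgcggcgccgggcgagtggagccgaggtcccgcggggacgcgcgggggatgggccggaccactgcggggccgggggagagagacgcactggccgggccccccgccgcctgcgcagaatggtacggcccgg
TXN: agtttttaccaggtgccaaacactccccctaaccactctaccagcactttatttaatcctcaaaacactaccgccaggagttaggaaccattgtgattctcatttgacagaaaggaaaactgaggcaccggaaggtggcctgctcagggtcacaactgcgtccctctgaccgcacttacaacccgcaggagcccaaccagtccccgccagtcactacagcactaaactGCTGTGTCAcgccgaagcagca

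In the TXNIP window the element begins 101 bases before the annotated start and holds CACGAG at both ends. In the SRXN1 window the match begins 231 bases before the start, and in the TXN window, where it lies on the other strand, 22 bases before it. The match to the antioxidant core alone lay upstream of TXN, while PRDX1, PRDX6 and TXNRD1 had no match to these letters in their windows. The core was found in 1 of 10 members and 10.6% of genes, and a link between matches and ratios was not tested. A match is a description of the letters, an annotated start need not be the start used in these cells, and no match says nothing of sites elsewhere.

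Ratios between members within a library do not depend on the scaling, and only their change between the libraries is read, since counts of genes of different length are not levels per length. Against thioredoxin, the reductase and the inhibitor were both higher in NO-treated cells. TXNRD1 had 8.34 counts per 100 of TXN in NO-treated cells, against 2.32 in controls, 3.59-fold more (3.43 to 3.75), and the columns lay at 8.30 to 8.37 in NO-treated cells and at 2.32 to 2.33 in controls. TXNIP had 2.33 counts per 100 of TXN in NO-treated cells, against 0.311 in controls, 7.50-fold more (6.70 to 8.41). PRDX1 had 122 counts per 100 of TXN in NO-treated cells, against 25.4 in controls.

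Within the peroxiredoxins the make-up shifted toward PRDX1 and PRDX6, which were 4.99-fold and 7.02-fold higher in NO-treated cells at the authors' scaling. PRDX1 had 1355 counts per 100 of PRDX2 in NO-treated cells, against 302 in controls, 4.49-fold more (4.36 to 4.63). PRDX4 had 3.86 counts per 100 of PRDX1 in NO-treated cells, against 31.3 in controls. Set against the summed typical 2-Cys enzymes, PRDX1 to PRDX4, the repair enzyme differed little, but the make-up of that sum changed. PRDX1 gave 194637 of its 221120 counts in NO-treated cells, against 26450 of 46308 in controls. At the authors' scaling SRXN1 was 3.18-fold higher, less than PRDX1, while PRDX2 and PRDX3 differed little and PRDX4 was lower. The ratio to the sum is therefore not the ratio to each enzyme. SRXN1 had 3.70 counts per 100 of that sum in NO-treated cells, against 3.77 in controls, and the columns overlapped at 3.63 to 3.77 in NO-treated cells and 3.68 to 3.91 in controls. The log2 ratio of these ratios was −0.03 with an interval of −0.10 to 0.05. TXNRD1 had 6.01 counts per 100 of the same sum in NO-treated cells, against 5.24 in controls; its log2 ratio was 0.20 (0.13 to 0.26). PRDX3, whose protein works in mitochondria, had 173 counts per 100 of TXN2, the mitochondrial thioredoxin, in NO-treated cells, against 143 in controls. The log2 ratio of these 2 ratios was 0.28 (0.17 to 0.39).

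**Figure D4:**
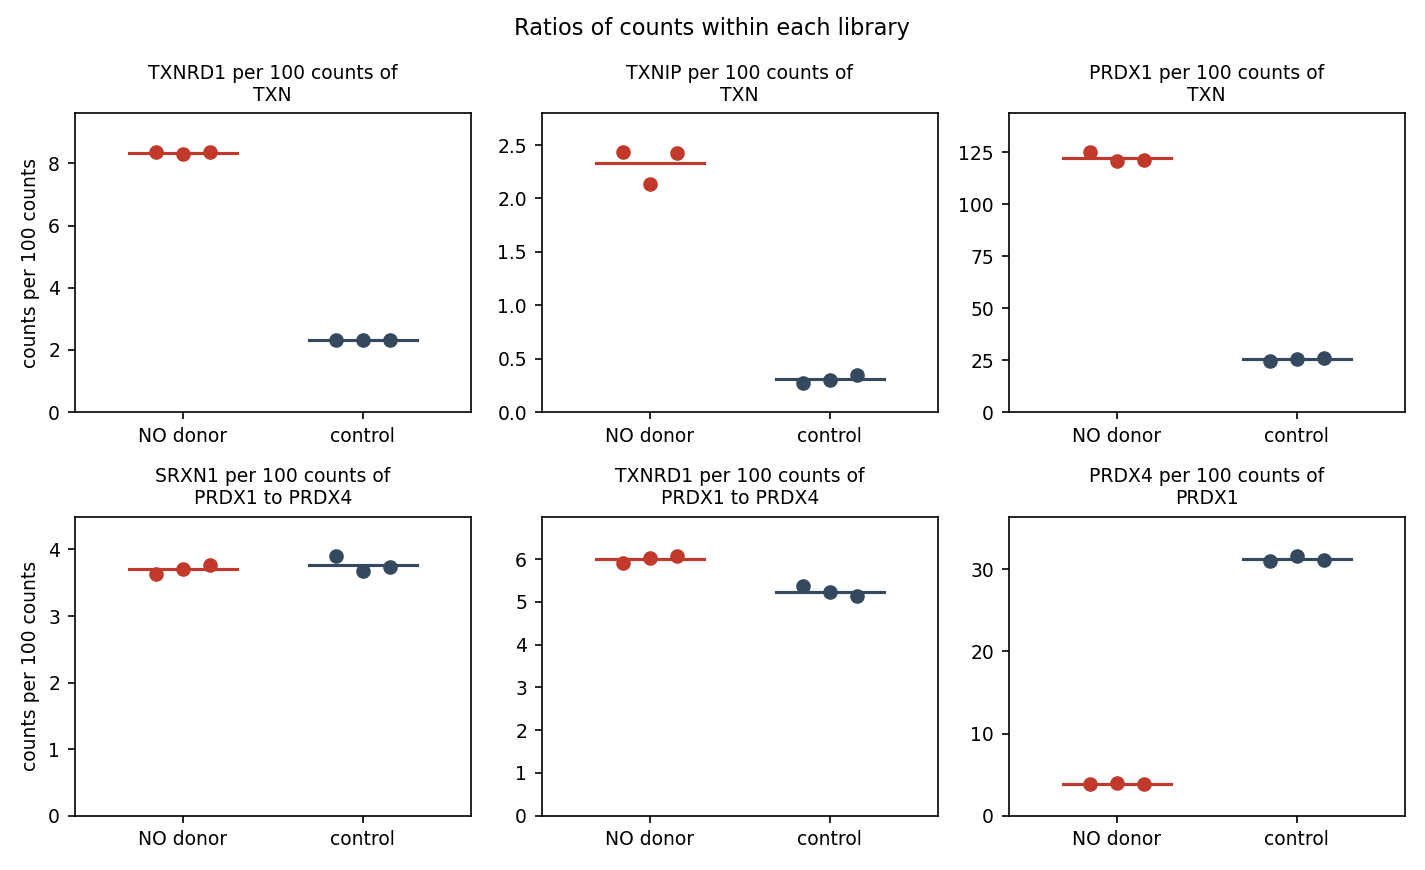
Counts of 1 gene per 100 counts of its partner within each library, with 1 point per column and a line at the pooled ratio. TXNRD1, TXNIP and PRDX1 per TXN are higher in NO-treated cells, SRXN1 per PRDX1 to PRDX4 overlaps between the libraries at 3.70 in NO-treated cells and 3.77 in controls, and PRDX4 per PRDX1 is far lower in NO-treated cells.

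The genes around the system were taken as 9 lists with 89 measured genes, 13 of them higher and 11 lower by the 2-fold rule, beside the 14.5% and 20.2% of all measured genes. Their median log2 ratio was 0.07, beside 0.00 for all measured genes. Total count scaling put 34 above and 4 below, beside 33.2% and 11.9% of all measured genes. It put the median at 0.67, beside 0.60 for all measured genes. The counts of each list below are to be read beside these shares. The median was 0.18 over 18 other genes named as relatives of thioredoxin or its reductase, 3 of them higher and 1 lower, or 6 and 0 with total count scaling. TMX2, a membrane-bound relative, had a log2 ratio of 1.35 and TXNDC9, a cofactor of chaperonin folding, 1.12. TXNDC5, a disulfide isomerase of the endoplasmic reticulum, had −1.56, or −0.96 with total count scaling. TXNL4B, with 2.49, is annotated in RefSeq as a long non-coding RNA. The mitochondrial pair stood near the control, with a log2 ratio of −0.12 (−0.21 to −0.04) for TXN2, or 0.47 with total count scaling, and 0.19 (−0.30 to 0.69) for its reductase TXNRD2, which had 96 counts in NO-treated cells, against 57 in controls.

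The glutathione arm of thiol reduction did not pass the rule in any of its 5 measured genes, with a median of −0.24, or 0.36 with total count scaling. GLRX, a glutaredoxin, which reduces mixed disulfides with glutathione, had a log2 ratio of −0.49 (−0.56 to −0.43) and GSR, glutathione reductase, −0.20 (−0.32 to −0.08). With total count scaling these became 0.10 and 0.40. None of 9 NADPH supply genes was higher and 2 were lower (median −0.47); under total count scaling these counts were 0 and 1 (median 0.13). The 2 lower ones were IDH2, the mitochondrial NADP-dependent isocitrate dehydrogenase, with a log2 ratio of −1.89 (−1.98 to −1.80), and ME1, malic enzyme, with −1.09, or −0.50 with total count scaling.

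Enzymes that take electrons from thioredoxin, and other partners, had 7 of 12 genes lower, 1 higher and a median of −1.30. Total count scaling left 3 lower and 2 higher (median −0.71). MSRB3, a methionine sulfoxide reductase of the endoplasmic reticulum and mitochondria, had 686 counts in NO-treated cells, against 3116 in controls; its log2 ratio was −2.74 (−2.87 to −2.62). MSRB1, its selenoprotein relative of cytosol and nucleus, had −1.70 and SESN1, a sestrin, −1.44, or −0.84 with total count scaling. RRM2 and RRM1 encode subunits of ribonucleotide reductase, which makes deoxynucleotides in dividing cells. Their log2 ratios were −3.96 for RRM2 and −1.31 for RRM1, the second of which became −0.72 with total count scaling. RRM2B, an alternative subunit of that enzyme, went the other way at 0.86 (0.66 to 1.06), or 1.46 with total count scaling. The gene called higher at the authors' scaling was MAP3K5, a stress kinase that thioredoxin binds, with a log2 ratio of 1.33. RRM2B and MAP3K5 were named after their values were seen.

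Genes of selenoprotein synthesis, on which TXNRD1 depends, had 1 of 7 genes higher, 0 lower and a median of 0.55, or 4 and 0 with 1.14 under total count scaling. The higher one was SEPSECS, the enzyme that completes selenocysteine on its tRNA, with 191 counts in NO-treated cells, against 56 in controls; its log2 ratio was 1.21 (0.77 to 1.67). Without the third control column no gene of the list passed the rule. Oxidative folding genes of the endoplasmic reticulum, where PRDX4 works, had 1 of 11 higher and 1 lower, with a median of −0.22, or 3 and 0 with 0.38 under total count scaling. ERO1A, the oxidase whose peroxide PRDX4 can use, had 1.06 (0.63 to 1.51), which did not pass the rule without the first NO donor column, and PDIA5, a disulfide isomerase, had −1.17, or −0.58 with total count scaling.

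The transcript of NRF2 itself lay near the control level at the authors' scaling, while others around it did not. NFE2L2, the gene of NRF2, had a log2 ratio of −0.01 (−0.08 to 0.05), or 0.58 with total count scaling, and KEAP1, its inhibitor, 0.98 (0.82 to 1.13), or 1.57 with total count scaling. Of the 9 genes of NRF2 and its regulators 2 were higher and 0 lower, MAFF, a small MAF partner, with 2.88 and SQSTM1, which binds KEAP1, with 1.87. Total count scaling gave 7 and 0. The median was 0.94 over 11 other NRF2 targets, 4 of them higher and 0 lower, or 9 and 0 with 1.53 under total count scaling. The 4 were OSGIN1, NQO1, SLC7A11 and GCLC, the catalytic subunit of glutathione synthesis, which had a log2 ratio of 1.19 (0.99 to 1.39). The lowest of the list, FTH1, went the other way and fell just short of the rule. Its log2 ratio was −0.974 (−0.982 to −0.966), or −0.38 with total count scaling.

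The alpha arrestins, the family of TXNIP, and genes of glucose sensing had 1 of 7 genes higher, 0 lower and a median of 0.40, or 3 and 0 with 0.999 under total count scaling. ARRDC3, which sorts membrane receptors for degradation, had 2544 counts in NO-treated cells, against 473 in controls; its log2 ratio was 1.87 (1.72 to 2.01). ARRDC4, the relative that shares glucose induction with TXNIP, had 0.95 (0.70 to 1.21), or 1.55 with total count scaling, and without the third control column the list had 2 genes past the rule.

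**Figure D5:**
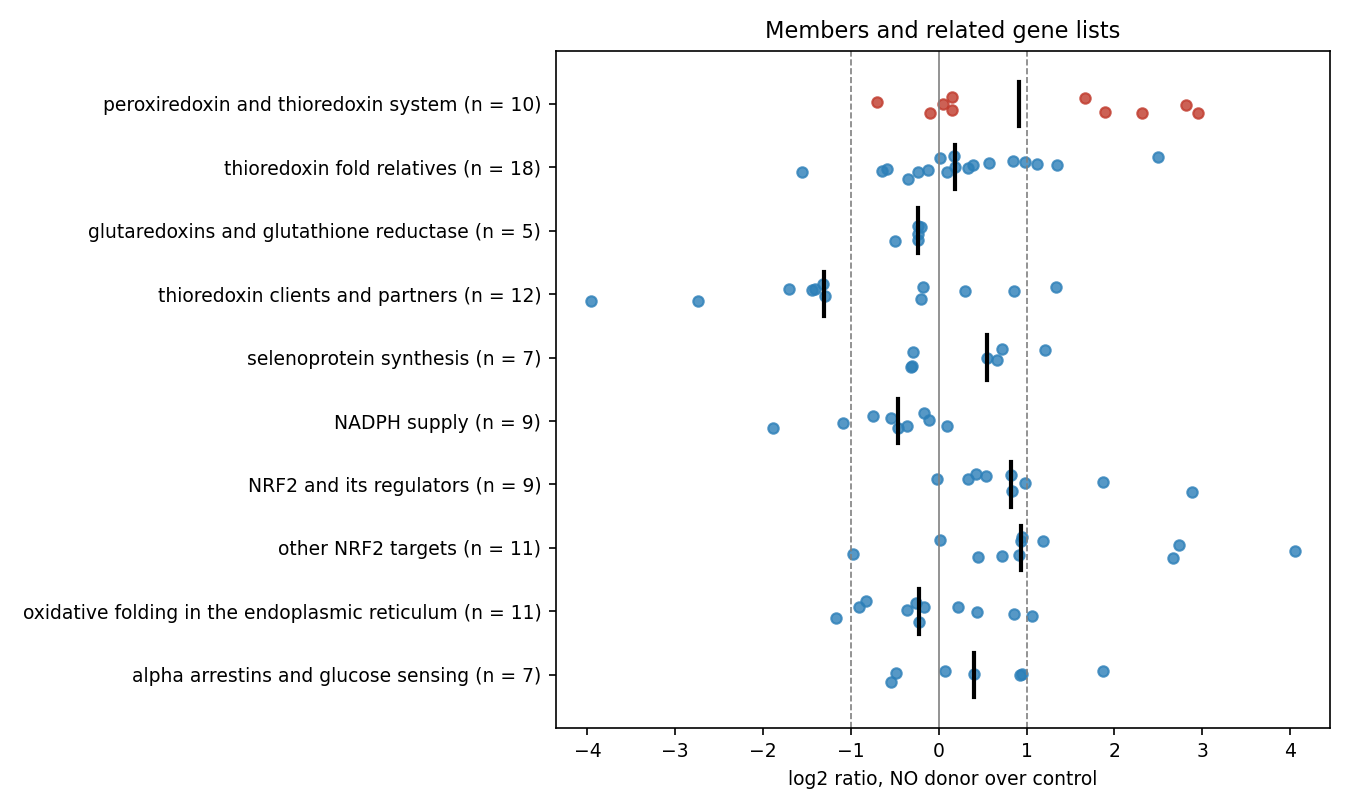
Log2 ratio, NO donor over control, of each measured gene of the peroxiredoxin and thioredoxin system (red) and of the 9 related lists (blue), with the median of each list as a black bar and dashed lines at a 2-fold difference. The 10 members fall into a cluster of 5 beyond the upper line and a cluster of 5 between the lines, and no glutaredoxin gene passes either line.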

How the data were processed

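Single-cell RNA libraries of porcine valve cells were measured, and 1 deposited table compares the NO donor with the control. Per the submitters' processing notes, the tools were Cell Ranger, DESeq2 and Seurat 3.0 and the genome build was Sscrofa11.1, with no roles stated. Per the file headers, the 3 columns per group hold counts and another column their mean. Not per the file headers but as inferred from the values, they hold a signal that the authors divided by a size factor per column. Dividing each column by 1 step gave whole numbers within 0.01 for 100% of its values, and these counts were used. The log2 fold change, its error, the Wald score and the p-value are the authors' own, per the file headers. The making of the columns and the filtering of cells and doublets are not given in the sources used here.

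A library's level is its summed count over its summed size factors. Intervals are exact Poisson for levels, Clopper-Pearson for ratios and, for ratios between members, a normal approximation on the log scale. Measured genes are the 13943 rows with an adjusted p-value in the deposited table; the other 861 were left out. With 1 library per group no count test was run on the recovered counts. Members, lists, motifs and alternatives were chosen with earlier results of these data known. From each list, up to 4 genes past the rule with a mean of at least 10 were named by size, besides 10 fixed genes. Scaling alternatives used edgeR 4.0.16, sequences pysam 0.24.0 and the copy search minimap2 2.31. Calculations were tested on simulated data that held counting error only.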

Additional observations from a re-analysis of the deposited data

How the results depend on the processing

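The 5 higher members stayed 5 under each scaling, the authors' fold change, the 0.5 threshold and each column left out; 1 member, PRDX4, was lower at the 0.5 threshold. The median over the members was 1.51 with total count scaling and 1.19 with ribosomal protein genes left out of the totals. Over the related lists, total count scaling gave 34 genes higher, 4 lower and a median of 0.67, totals without ribosomal protein genes 25 higher and a median of 0.35, and the 0.5 threshold 31 higher and 19 lower. Of all measured genes, 33.2% were higher and 11.9% lower with total count scaling, 21.7% higher without ribosomal protein genes in the totals, 29.5% higher and 32.0% lower at the 0.5 threshold, and 8.65% higher at a mean of at least 500, a filter chosen after seeing the data that TXNIP passed only through NO-treated cells. These scalings add a constant to every log2 ratio, 0.60 and 0.28; edgeR's TMM adds 0.04. With a column left out, the log2 ratio of a member moved by at most 0.10, that of TXNIP. Of the 10 members, all kept the sign of their log2 ratio under the authors' fold change, which rests on the same columns. PRDX5 went from −0.09 to 0.50 with total count scaling and to 0.19 without ribosomal protein genes in the totals. No paired analysis was possible because each group was 1 library. Variation between cultures is not in any interval.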

Other observations

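Several members share their upstream window with an exon of another gene. The window of PRDX6 holds an exon of TNFSF4, the OX40 ligand, on the opposite strand. TNFSF4 had 62.7, 61.7 and 58.4 normalized counts in the NO donor columns and 6.73, 3.64 and 7.56 in the control columns, a log2 ratio of 3.34 (2.59 to 4.20) from 224 counts in NO-treated cells and 15 in controls. The window of PRDX5 holds an exon of TRMT112, an activator of methyltransferases, with a log2 ratio of −0.24 (−0.29 to −0.19), beside −0.09 for PRDX5. The window of PRDX2 holds an exon of RNASEH2A, a subunit of ribonuclease H2, with −0.91 (−1.13 to −0.69), beside 0.15 for PRDX2. The window of TXNIP holds an exon of the long non-coding RNA LOC106510173, with 31 counts in NO-treated cells and 3 in controls, a log2 ratio of 2.81 (1.13 to 5.16), beside 2.96 for TXNIP. Total count scaling adds 0.60 to each of these log2 ratios, which turns that of TRMT112 above 0. These neighbours were named after their values were seen.

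The columns of a library differed by more than counting error for 5 of the members. The spread of the 3 counts over that of Poisson counting was 13.8 for PRDX1, 6.87 for TXNIP and 3.74 for PRDX2 in NO-treated cells. It was 4.08 for PRDX6 in NO-treated cells and 4.87 in controls, and 3.43 for TXN in NO-treated cells and 9.92 in controls. By contrast, TXNRD1 had 0.32 in NO-treated cells and 0.16 in controls, and SRXN1 had 0.44 in NO-treated cells and 0.28 in controls. The median of this measure over the genes averaging 500 or more was 1.11 in NO-treated cells and 1.07 in controls. PRDX3, PRDX4 and PRDX5 lay between 0.27, for PRDX5 in controls, and 1.596, for PRDX3 in NO-treated cells. The counting intervals of PRDX1, PRDX2, PRDX6, TXN and TXNIP are therefore too narrow for the spread of their columns.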
